A study of Mus musculus with 6 samples.

Results

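The cytoplasmic polyadenylation element-binding genes of the mouse are Cpeb1 (ENSMUSG00000025586, chromosome 7), Cpeb2 (ENSMUSG00000039782, chromosome 5), Cpeb3 (ENSMUSG00000039652, chromosome 19) and Cpeb4 (ENSMUSG00000020300, chromosome 11). These 4 genes are described here out of 37991 gene rows counted in each of 6 liver RNA sequencing libraries. They were taken by symbol through their Ensembl IDs, and the family was chosen with the lower level of Cpeb1 in mutant livers already known. The difference between genotypes is therefore a description of these genes, with no test. The libraries came from livers of FVB mice, 84 days old, 3 with the genotype Ing5 +/+ (WT) and 3 with Ing5 MommeD48/+ (Het), and all 6 were made from poly(A) RNA. Both groups share the FVB strain, and no other allele or treatment is given for either. MommeD alleles were recovered in a screen for modifiers of transgene silencing, and Ing5 encodes a chromatin reader subunit of histone acetyltransferase complexes. The labels do not state what the mutation does to Ing5, nor that each numbered liver came from a separate mouse, so spreads and p-values measure the variation among these samples, which may be technical.

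CPEB proteins bind short U-rich elements in the 3′ untranslated regions (UTRs) of messenger RNAs. They recruit factors that lengthen or shorten the poly(A) tail in the cytoplasm, and so switch translation of the bound transcript on or off. CPEB1 is the founding member, known from oocyte maturation and from synapses. CPEB2, CPEB3 and CPEB4 form a second subgroup with a closely related RNA-binding region. In liver, CPEB4 is known for translation of transcripts of the endoplasmic reticulum stress response, and CPEB1 for control of insulin signalling.

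Total counts ranged from 19840541 to 22041117 per library, and 12631 genes had enough counts to be tested. Ing5 itself had 182, 228 and 191 counts in WT and 193, 217 and 180 in Het livers, so its transcript level does not tell the genotypes apart. The tissue label was checked against 7 hepatocyte markers, Alb among them, all of which were tested, with summed levels of 82718 to 96323 CPM (read counts scaled to a common library size, normalised for composition) across WT and 85486 to 103432 CPM across Het livers. All 4 Cpeb genes passed the low-count filter, with 757, 4537, 1606 and 9504 counts over the 6 libraries for Cpeb1, Cpeb2, Cpeb3 and Cpeb4.

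The 4 transcripts hold matches to the cytoplasmic polyadenylation element for which the family is named, and these are described by sequence only. Whether each member binds this element in these transcripts is not shown by these data. In the longest complete coding transcript of each gene in GENCODE M21, the 3′ UTR was searched on the sense strand for TTTTAT and TTTTAAT, the common forms of the element. Cpeb2 held 24 copies in 3778 bases (6.35 per kb), Cpeb4 held 17 in 4102 bases (4.14 per kb), Cpeb1 held 4 in 1315 bases (3.04 per kb) and Cpeb3 held 6 in 3569 bases (1.68 per kb). Over 10399 genes with a 3′ UTR of at least 1000 bases the median was 1.08 per kb. A density as high as that of Cpeb2 was reached by 0.173% of them, that of Cpeb4 by 2.15%, that of Cpeb1 by 7.37% and that of Cpeb3 by 31.2%. None of the 4 had a copy in its last 100 bases (0 copies each), where 17.7% of 20029 genes with a 3′ UTR of at least 100 bases had one. The copy nearest the 3′ end of each transcript is given below in 30 bases, with the element in capitals. It began 249 bases before the end of the transcript in Cpeb1, 159 in Cpeb2, 233 in Cpeb3 and 217 in Cpeb4. A match is only a description of the letters, and binding was not measured.
Cpeb1: cttgacttttctTTTTAATttaacgattac
Cpeb2: taatttagtttaTTTTATtgttatcttcca
Cpeb3: ggaataaattaaTTTTATgatgctaattct
Cpeb4: gggtaattcattTTTTATtaaagtcatttt

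The family splits in sequence as it is known to split in function, and this bears on whether reads could be counted for the wrong member. Over the last 700 coding bases, which lie toward the RNA-binding end of the protein, identity was 81.3% between Cpeb2 and Cpeb4, 79.6% between Cpeb2 and Cpeb3 and 79.3% between Cpeb3 and Cpeb4. Between Cpeb1 and the other three it was 55.7% (Cpeb2), 56.3% (Cpeb3) and 55.0% (Cpeb4). Even so, the longest stretch that any pair of complete coding transcripts shared without a mismatch was 29 bases, between Cpeb2 and Cpeb4, and no pair with Cpeb1 shared more than 13 bases. The read length is not given in the sources used here.
Cpeb2 and Cpeb4, longest shared coding run: tattttccaccaaaaggctatgcattcct
Cpeb1 and Cpeb4, longest shared coding run: tgctccaaaatcc

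Cpeb1 was the member whose level separated the genotypes. It had 8.13, 7.08 and 7.76 CPM in the WT livers and 4.64, 3.68 and 5.07 CPM in the Het livers, from 169, 156 and 151 counts and 97, 80 and 104 counts. The lowest WT liver stood above the highest Het liver, and Het replicate 2 was the lowest of all. Group means were 7.66 ± 0.536 CPM across WT and 4.46 ± 0.713 CPM across Het livers (SD, n = 3), a log2 fold change of -0.78 (SE 0.15) or a fold of 0.583. In whole tissue, fewer cells of a type cannot be told apart from less RNA per cell. With a single library omitted the log2 fold change lay between -0.88 (Het replicate 3 omitted) and -0.66 (Het replicate 2 omitted). The spread of log2 CPM within genotypes was 0.18, against 0.13 that counting error alone would give at these depths.

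**Figure D1:**
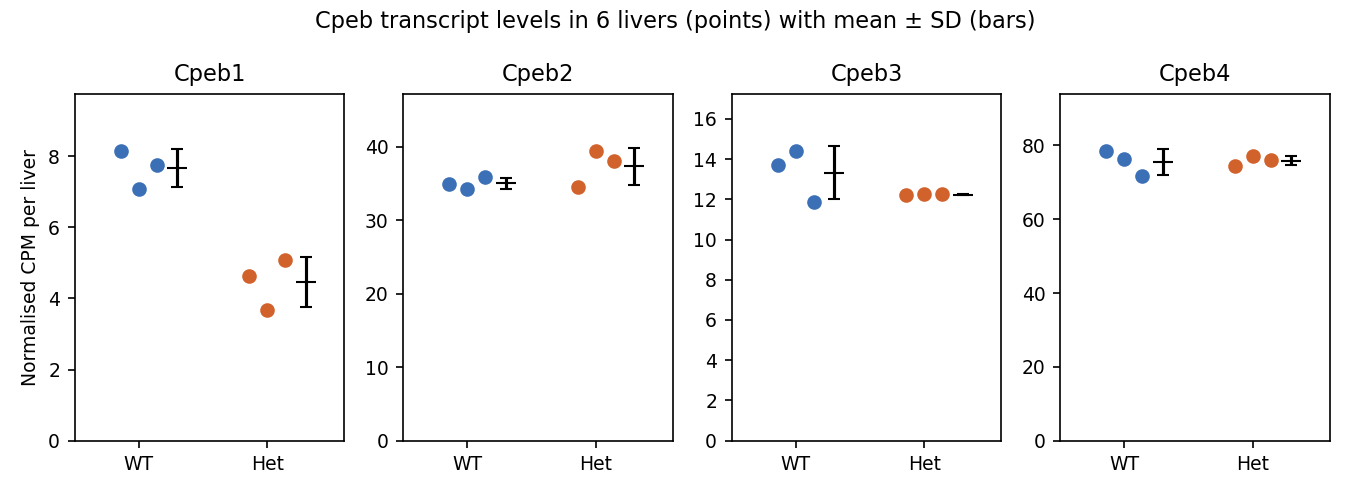
Normalised CPM (y axis, from 0, a separate scale for each gene) of the 4 Cpeb genes in WT and Het livers; each point is 1 liver and each bar is the mean ± SD of 3. The Cpeb1 points lie between 7.08 and 8.13 CPM across WT and between 3.68 and 5.07 CPM across Het livers, while the points of the other genes overlap.

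Cpeb2, Cpeb3 and Cpeb4 had overlapping values in the 2 genotypes. Cpeb2, reported to bind elongation factor 2 and slow translation, had 34.99, 34.2 and 35.8 CPM across WT and 34.6, 39.4 and 38.0 CPM across Het livers. Het replicates 2 and 3 were above every WT liver, and Het replicate 1 was among them. The log2 fold change was 0.09 (SE 0.08), with a 95% interval of the fold from 0.943 to 1.21.

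Cpeb3, a regulator of synaptic transcripts, had 13.7, 14.4 and 11.9 CPM across WT and 12.2, 12.3 and 12.2 CPM across Het livers. The 3 Het livers were nearly identical, and WT replicate 3 was the lowest of the 6. The log2 fold change was -0.12 (SE 0.10; 95% interval of the fold 0.785 to 1.07), and it ran from -0.20 without WT replicate 3 to -0.065 without WT replicate 2. Acute-phase genes, induced in hepatocytes by inflammatory cytokines, differed between the same WT livers. All 20 listed genes were tested and 0 were called (edgeR, Benjamini-Hochberg), with 20 lower, where 49.7% of all genes tested were lower, and a median log2 fold change of -0.60. At an unadjusted p under 0.05, 1 was lower, Saa4, and 0 higher, against 2.21% and 2.12% of all genes tested. Without WT replicate 3, 2 were called, Saa4 and Il1r1, out of 17 of 12801 genes tested in that fit (0.133%). Their score, the mean deviation of log2 CPM from the average liver, was 0.82, 1.76 and -1.01 in WT replicates 1 to 3 and 0.50, -0.87 and -1.19 in Het replicates 1 to 3. Their part in the Cpeb3 values was not tested.

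Cpeb4 had 78.4, 76.5 and 71.7 CPM across WT and 74.5, 77.1 and 76.1 CPM across Het livers. All 3 Het values lay inside the WT range. The log2 fold change was 0.0072 (SE 0.076), and the 95% interval of the fold was 0.893 to 1.13. Leaving out 1 library gave values from -0.029 (without WT replicate 3) to 0.030 (without WT replicate 1).

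**Figure D2:**
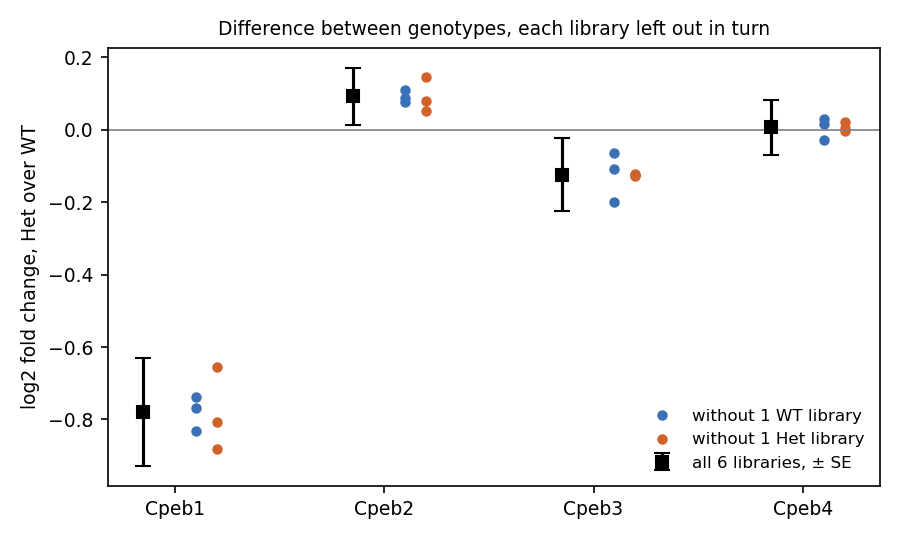
Log2 fold change of Het over WT (y axis) for each Cpeb gene; squares are all 6 libraries with SE, points are fits with 1 WT (blue) or 1 Het (orange) library left out. Cpeb1 stays between -0.88 and -0.66, Cpeb2 and Cpeb3 stay on their side of 0, and the Cpeb4 points lie on both sides of 0.

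Across all genes edgeR (quasi-likelihood, p-values adjusted by Benjamini-Hochberg) called 0 of 12631 genes (0%) at an adjusted p of 0.05, and 0 of the 4 Cpeb genes. At an unadjusted p under 0.05 the count was 547 genes. DESeq2 called 10 genes and limma-voom 0, and neither called a Cpeb gene. The edgeR count was 17 without WT replicate 3 and 10 without Het replicate 1, and 0 of the 4 Cpeb genes were called in any fit with a library left out. Cpeb1 was the 1 member with all Het livers below all WT livers, a pattern held by 540 of the genes tested (4.28%), and 0 members had all Het livers above, which 596 genes had (4.72%). Since Cpeb1 was chosen on this contrast, nothing is read from these counts.

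As a share of the counts of the 4 genes together, Cpeb1 took 6.01%, 5.36% and 6.10% in the WT livers and 3.68%, 2.78% and 3.86% in the Het livers. The 95% Wilson intervals of these shares reached down to 4.60% in WT and up to 4.65% in Het livers. Within a library such a share does not depend on scaling. It rests on the same Cpeb1 counts with which the family was chosen, so its separation of the genotypes is no further support. Cpeb4 took 57.4% ± 0.886 in WT and 58.4% ± 0.662 in Het livers (SD, n = 3), Cpeb2 26.6% ± 1.32 and 28.7% ± 1.15, and Cpeb3 10.1% ± 0.775 and 9.42% ± 0.227. The summed level of the family was 132 ± 4.09 CPM across WT and 129.9 ± 3.55 CPM across Het livers, with overlapping values. Cpeb1 contributes little to that sum.

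**Figure D3:**
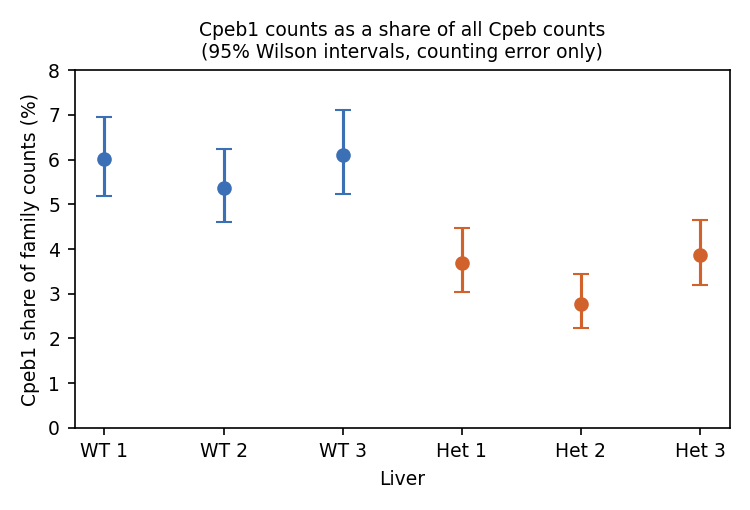
Share of Cpeb1 in the counts of the 4 Cpeb genes (y axis, percent, from 0) in each liver (x axis), with 95% Wilson intervals that cover counting error only. The WT livers lie at 5.36% to 6.10% and the Het livers at 2.78% to 3.86%.

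To compare levels between the genes, CPM was divided by the length of the union of each gene's exons in GENCODE M21, which was 4192, 7816, 7414 and 6369 bases for Cpeb1 to Cpeb4. Cpeb4 was the most abundant per length, with 11.9 ± 0.369 CPM per kb over the 6 livers (SD), and it exceeded 78.9% of the tested genes with a known length. Cpeb2 followed with 4.63 ± 0.267 CPM per kb, above 59.2% of the tested genes. Cpeb3, at 1.72 ± 0.137 CPM per kb, and Cpeb1, at 1.45 ± 0.439 CPM per kb, were above 34.8% and 31.5% of them, both below the median of 3.21 CPM per kb.

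Cpeb4 was 2.57-fold above Cpeb2 on this scale, and higher in 6 of 6 livers. Cpeb2 was 2.69-fold above Cpeb3, again in 6 of 6 livers. Each of these neighbouring differences had an exact two-sided paired permutation p of 0.03125, the smallest that 6 livers allow, and a Benjamini-Hochberg adjusted p of 0.0469 over 3 pairs. The neighbours were set by ranking the genes in these same livers. For Cpeb3 and Cpeb1 the values are given as a description, since they include the Het values of Cpeb1 with which the family was chosen. The p of this pair entered the adjustment over 3 pairs and is not read as a result. Cpeb3 was higher in 4 of 6 livers. The mean difference in log2 CPM per kb, Cpeb3 minus Cpeb1, was -0.026 ± 0.208 in WT and 0.65 ± 0.242 in Het livers (SD, n = 3). The WT livers lay on both sides of 0 and the Het livers all above it. Over the 6 livers the mean difference was 0.31 with the exon length, 0.78 with the coding length and 0.21 with the longest coding transcript, and Cpeb3 was higher in 4, 6 and 4 of the 6 livers.

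**Figure D4:**
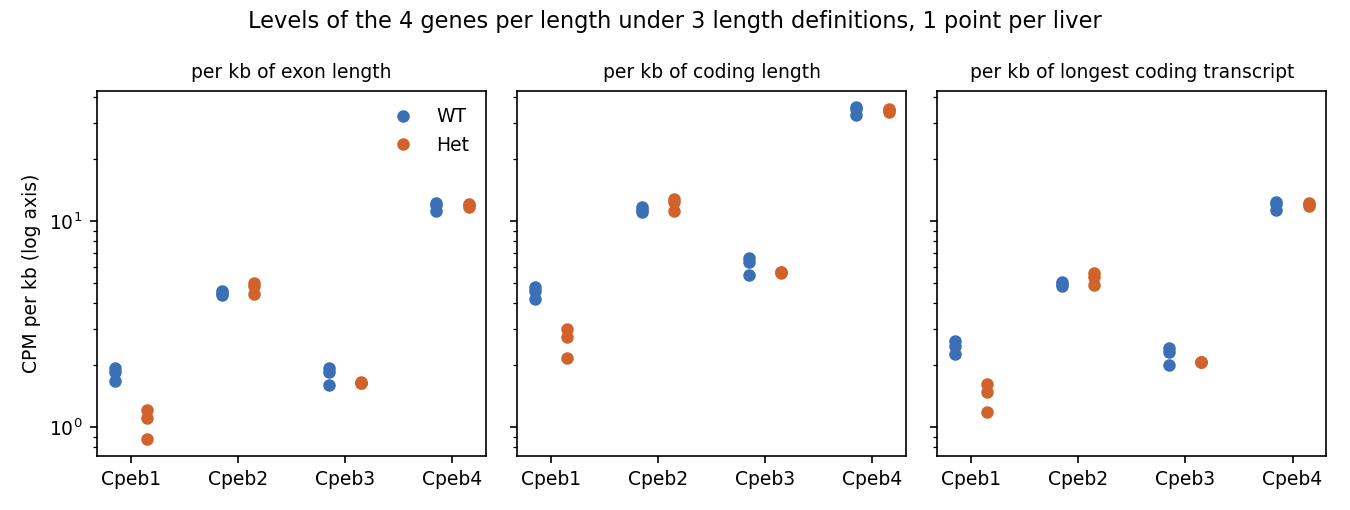
CPM per kb (y axis, log scale) of the 4 genes with 3 definitions of length (panels); each point is 1 liver, blue for WT and orange for Het. Cpeb4 is highest and Cpeb2 next in every panel, while Cpeb1 and Cpeb3 overlap in WT livers for exon and longest transcript length.

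The start of Cpeb1 is shown because its transcript level was the one that differed. The 250 bases upstream of the RefSeq start in the promoter table (chr7:81454759-81455008, GRCm38.p6, minus strand) had a GC content of 74.0% and 25 CpG dinucleotides. Windows of 300 bases, 250 before and 50 after the start, were searched on both strands for the E-box CACGTG, the TATA box TATAAA, the GC box GGGCGG, the cyclic AMP response element TGACGTCA and the CCAAT box. No match in the windows described here overlapped another. The capitals below mark TTTATA, the reverse complement of TATAAA, which begins at position -30 and is present in 13.6% of 32851 windows on either strand. The Cpeb1 window also held GGGCGG 4 times (35.7% of windows have it) and CACGTG once, at position 24, in the transcribed part (7.15% of windows).
Cpeb1 upstream: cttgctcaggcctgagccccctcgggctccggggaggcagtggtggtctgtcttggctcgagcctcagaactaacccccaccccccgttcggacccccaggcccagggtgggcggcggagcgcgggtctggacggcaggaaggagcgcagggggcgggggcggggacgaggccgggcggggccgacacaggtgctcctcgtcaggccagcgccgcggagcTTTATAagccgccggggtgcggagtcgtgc

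For contrast, the Cpeb4 window, of the most abundant member and the one with the smallest spread within genotypes, held no CACGTG or TATAAA (0 copies each), GGGCGG once and CCAAT once. Its 250 upstream bases (chr11:31870690-31870939, GRCm38.p6, plus strand) had a GC content of 66.0% and 21 CpG dinucleotides. The capitals mark ATTGG, the reverse complement of CCAAT, which 37.4% of windows hold on either strand. TGACGTCA was in neither window and is in 1.79% of all windows.
Cpeb4 upstream: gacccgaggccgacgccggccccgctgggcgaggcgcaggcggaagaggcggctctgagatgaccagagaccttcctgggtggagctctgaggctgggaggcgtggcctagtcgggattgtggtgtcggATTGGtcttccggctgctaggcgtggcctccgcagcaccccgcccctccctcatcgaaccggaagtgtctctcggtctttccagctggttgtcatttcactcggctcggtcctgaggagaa

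Genes that overlap or adjoin the family were examined because the counting strand was not given in the sources used here. Rpl7a-ps9, a pseudogene within the span of Cpeb1, shares 0 exon bases with it and had 0 counts in every library, as had Ap3b2, the nearest coding neighbour on one side. Gm7854, an antisense gene that shares 137 exon bases with Cpeb2, had at most 1 count per library. March5, a mitochondrial ubiquitin ligase gene on the opposite strand whose span overlaps that of Cpeb3, shares 0 exon bases with it and had a log2 fold change of -0.09 (SE 0.09). Without strand, reads from A330032B11Rik, antisense to Cpeb3 over 116 exon bases and not among the rows of the files, could not be told apart from Cpeb3.

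Of 12 lists of cell type markers, 2 had summed levels that did not overlap between genotypes, those of cholangiocytes and of nerve and Schwann cells. Of all single genes tested, 4.28% had every Het liver below every WT liver, as Spp1 below had, and 4.72% every Het liver above. No such share is known for sums, so nothing is read from the count of 2. For cholangiocytes the summed level of 6 markers was 29.6 to 33.6 CPM across WT and 26.9 to 29.1 CPM across Het livers, and the difference was carried by Spp1 (osteopontin), with 28.1, 25.1 and 29.7 CPM across WT and 23.0, 23.8 and 24.9 CPM across Het livers. The defining cholangiocyte markers Krt19 and Krt7 overlapped, at 0.590 to 1.01 and 0.433 to 0.617 CPM across WT and 0.488 to 2.16 and 0.537 to 0.644 CPM across Het livers, and Cftr was at 0.0963 to 0.206 CPM across WT and at 0 in the Het livers, where a count of 0 allows up to 0.138 to 0.146 CPM. The sum of 7 nerve and Schwann cell markers was 1.64 to 2.06 CPM across WT and 2.15 to 2.30 CPM across Het livers, in the direction opposite to Cpeb1, with Snap25 and Th at 0 in all libraries. Among 7 hepatocyte markers Apoa1 was the 1 with every Het liver above every WT liver. It had 5832, 6224 and 6710 CPM across WT and 7568, 7238 and 6998 CPM across Het livers. Among 9 stellate cell markers Reln was the 1 with every Het liver above every WT liver, as 4.72% of all genes tested had. Lrat, of the same list, went the other way with overlapping values (log2 fold change -0.33, SE 0.18). The list summed to 188 to 264 CPM across WT and 235 to 300 CPM across Het livers. The part of these cells in the Cpeb1 values was not tested.

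Of 53 listed genes of cytoplasmic polyadenylation, deadenylation and their control, 43 were tested and 0 were called in either direction by edgeR (lowest Benjamini-Hochberg adjusted p = 0.9998). At an unadjusted p under 0.05, 0 were lower and 0 higher in Het livers, against 2.21% and 2.12% of all genes tested. The median log2 fold change was -0.0071, beside 0.00088 over all genes, with values from -0.40 (Cdk1) to 0.23. Of the list 23 genes were lower and 20 higher, where 49.7% of all genes tested were lower. The most abundant by CPM were Aplp2, of the amyloid precursor family that binds CPEB1, with 320 ± 7.10 CPM across WT and 315 ± 10.6 CPM across Het livers (SD, n = 3), and Pabpc1, the cytoplasmic poly(A)-binding protein, with 224 ± 8.51 and 218 ± 10.003 CPM.

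By role, the 7 cleavage and polyadenylation factors (CPSF subunits, Fip1l1, Wdr33 and symplekin, the last a scaffold of the CPEB1 complex) had log2 fold changes from -0.023 to 0.13. Tent2, the cytoplasmic poly(A) polymerase also known as GLD2, had 19.98, 20.5 and 19.8 CPM across WT and 18.5, 18.9 and 18.8 CPM across Het livers. Its log2 fold change of -0.10 (SE 0.08) was not called. It was the 1 gene of the list with every Het liver below every WT liver (4.28% of all genes tested), while 2 genes, Pan2 and Lsm14b, had every Het liver above (4.72%). Of 16 deadenylases and adaptors, all of them tested, 10 had lower and 6 higher values, from -0.16 to 0.23 (49.7% of all genes tested were lower). Among these, Parn, the deadenylase bound by CPEB1 in oocytes, had 19.9 ± 0.846 CPM across WT and 22.8 ± 2.98 CPM across Het livers. Pan2, a subunit of the poly(A)-shortening complex PAN2-PAN3, had 28.4, 27.6 and 31.4 CPM across WT and 31.7, 33.8 and 31.998 CPM across Het livers, and was not called.

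Lsm14b, of a family of translational repressors, had 19.8 ± 0.393 CPM across WT and 21.9 ± 0.904 CPM across Het livers and was not called. Among cap-binding and repressor proteins, Eif4e had 50.9 ± 2.29 and 47.1 ± 2.27 CPM, Eif4enif1 (4E-T) 24.6 ± 2.05 and 25.7 ± 1.11 CPM, and the helicase gene Ddx6 106 ± 6.77 and 106 ± 5.89 CPM across WT and Het livers. The 10 genes of the whole list that were not tested had mean levels over the 6 livers of at most 0.507 CPM, that of Aurka, a kinase that acts on CPEB1 in oocytes. Among these 10, Eif4e1b and Zar1 had 0 counts in all libraries. Pum2, which binds other 3′ UTR elements and acts beside CPEB1, had 74.7 ± 7.19 CPM across WT and 72.9 ± 2.64 CPM across Het livers.

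**Figure D5:**
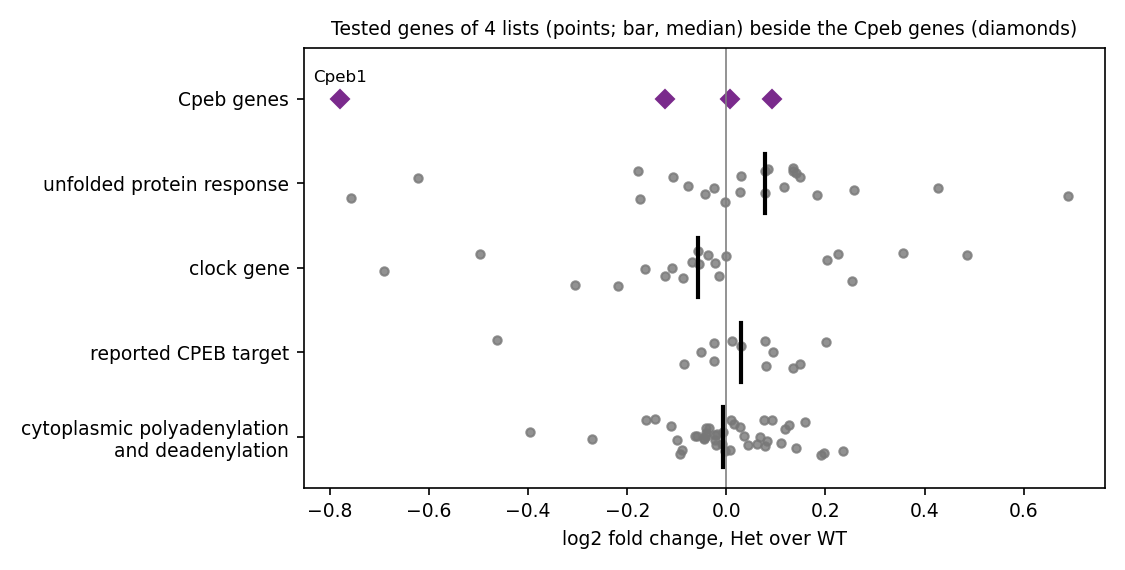
Log2 fold change of Het over WT (x axis) for the tested genes of 4 lists (points, spread vertically for clarity; bar, median of the list) and for the 4 Cpeb genes (diamonds). The list medians lie between -0.056 and 0.078, with single genes from -0.76 to 0.69, and Cpeb1 is at -0.78. The acute-phase list, with a median of -0.60, is not plotted.

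Transcripts reported elsewhere as CPEB targets were then examined, with the limit that CPEB proteins act on translation and tail length, which counts of poly(A) RNA do not measure. Of 22 listed targets 13 were tested and 0 were called in either direction (edgeR, Benjamini-Hochberg). Without WT replicate 3, 1 was called, Stat3 (log2 fold change -0.72, edgeR adjusted p = 0.0296). In that fit 17 of 12801 genes tested were called (0.133%). The median log2 fold change was 0.030, and was -0.017 without the low-count filter and -0.0092 without WT replicate 1. Values were lower for 5 targets and higher for 8, where 49.7% of all genes tested were lower. At an unadjusted p under 0.05, 0 were lower and 0 higher, against 2.21% and 2.12% of all genes tested. Stat3, a target of CPEB1 in hepatic insulin signalling, had 116 ± 41.5 CPM across WT and 84.3 ± 1.91 CPM across Het livers. Stat3 was high in WT replicates 1 and 2, at 127 and 151 CPM, and 70.3 CPM in WT replicate 3. In these WT livers the acute-phase score was high and low likewise. Across Het replicates 1 to 3 Stat3 stayed at 84.5, 82.3 and 86.1 CPM, while the score was 0.50, -0.87 and -1.19. The most abundant were the chaperone genes Hsp90b1, with 768 ± 47.3 and 844 ± 194 CPM, and Hspa5, with 714 ± 47.1 and 792 ± 254 CPM. Trp53 had 16.9 ± 2.39 and 18.0 ± 0.418 CPM.

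The unfolded protein response, a process in which CPEB4 acts in liver, had 23 of 23 listed genes tested and 0 called. The median log2 fold change was 0.078, with 9 lower and 14 higher, where 49.7% of all genes tested were lower. At an unadjusted p under 0.05, 0 were lower and 0 higher, against 2.21% and 2.12% of all genes tested. Herpud1 was the 1 gene with every Het liver below every WT liver (4.28% of all genes tested), and 0 had every Het liver above (4.72%). It had 462, 373 and 412 CPM across WT and 367, 369 and 367 CPM across Het livers, and was not called. The most abundant besides Hsp90b1 was Calr, at 727 ± 40.3 and 789 ± 151 CPM. The median was -0.0014 without Het replicate 2 and 0.15 without WT replicate 2.

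Clock genes were listed because Cpeb4 function in liver has been tied to circadian control and the time of dissection was not given in the sources used here. Of 21 genes 20 were tested and 0 called, with 15 lower and 5 higher, where 49.7% of all genes tested were lower. The median log2 fold change was -0.056, and -0.0055 without WT replicate 3. At an unadjusted p under 0.05, 1 gene was lower and 1 higher, against 2.21% and 2.12% of all genes tested. Per1, a period gene, was the lower one, with 46.1, 32.8 and 42.7 CPM across WT and 30.9, 24.4 and 30.9 CPM across Het livers (log2 fold change -0.50, SE 0.14, edgeR adjusted p = 0.9998). Every Het liver was below every WT liver, as for Cpeb1 and, among the clock genes, Cry1, a pattern that 4.28% of all genes tested had. In both Per1 and Cpeb1, WT replicate 2 was the lowest WT and Het replicate 2 the lowest Het liver. In Cry1, WT replicate 2 was the lowest WT liver too, but Het replicate 3 was the lowest Het liver (10.1, 9.61 and 9.02 CPM). These ranks include the Cpeb1 values with which the family was chosen, so nothing is read from them. Nfil3, a repressor of clock output, was the higher one and the 1 clock gene with every Het liver above every WT liver (4.72% of all genes tested), at 15.1 ± 1.91 and 18.0 ± 1.16 CPM (0.25, SE 0.11, edgeR adjusted p = 0.9998). The most abundant clock genes, Tef at 261 ± 19.6 and 260 ± 1.83 CPM and Nr1d2 at 139 ± 6.90 and 135 ± 1.51 CPM, had overlapping values. The part of the time of day in the Cpeb1 values was not tested.

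Among 11639 genes with a mean log2 CPM of at least 0, those whose pattern over the 6 livers was most like that of Cpeb1 were Ppp3r1 (calcineurin B), Tfpi2 (a protease inhibitor) and Sbk1 (a kinase gene), with a Pearson r of log2 CPM of 0.98 for each. With so many genes and 6 livers, high values of r arise readily, and they are given as a description. Ppp3r1 had 40.2, 37.9 and 38.5 CPM across WT and 34.4, 33.1 and 35.8 CPM across Het livers, a smaller difference than that of Cpeb1 (log2 fold change -0.18, SE 0.07). Sbk1 had 22.6, 20.5 and 22.1 CPM across WT and 16.6, 13.3 and 15.4 CPM across Het livers (-0.53, SE 0.10). Both genes had Het replicate 2 as the lowest liver, as Cpeb1 did. Since they were picked by likeness to Cpeb1 in these livers, this and their lower Het levels largely follow from that choice.

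For the other members the 9 most similar genes all had values that overlapped between genotypes. They were picked by likeness to members whose own values overlap, so nothing is read from this or from the livers in which they match. Of all genes tested, 4.28% had every Het liver below every WT liver and 4.72% every Het liver above. Smarcal1, Cdh1 and Mup16 were most like Cpeb2, with r of 0.998, 0.994 and 0.9897. Cdh1, the gene of E-cadherin, had 18.1, 15.7 and 19.7 CPM across WT and 15.9, 30.8 and 27.9 CPM across Het livers, with Het replicates 2 and 3 high as for Cpeb2. Mup16 belongs to a family of near-identical genes, so its counts are uncertain. Stat3, Tbc1d24 and Atp2b2 were most like Cpeb3, with r of 0.994, 0.993 and 0.985, and C9, Spin1 and Xpo7 most like Cpeb4, with r of 0.994, 0.991 and 0.990. C9, a complement gene, had 2001, 1606 and 1098 CPM across WT and 1406, 1701 and 1630 CPM across Het livers, with WT replicate 1 highest and WT replicate 3 lowest as for Cpeb4. None of these 12 genes was called (edgeR, Benjamini-Hochberg adjusted p = 0.572 to 0.9998).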

How the data were processed

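Per the labels' protocols, Trizol was used to isolate RNA from flash-frozen liver, and libraries came from a TruSeq kit. The authors deposited raw counts for each Ensembl gene; TopHat2 2.0.11, HTSeq 0.6.1, DESeq and mm9 are named in the submitters' processing notes without their roles. The strand setting and annotation release are not given in the sources used here. Counts were filtered with filterByExpr, normalised with TMM and fitted by genotype with edgeR 4.0.16 (robust quasi-likelihood) in R 4.3.3, with Benjamini-Hochberg adjustment over 12631 genes at 0.05. SEs come from the F statistic. A count of 0 allows up to 3 counts, or 0.136 to 0.154 CPM; floors and intervals cover counting error only. Libraries were compared pairwise by chi-square (10.2 to 79.9 per degree of freedom), and none was a copy of another. Names, exon lengths and transcripts came from GENCODE M21 and promoters from RefSeq (3 of the 4 genes matched), both of GRCm38, another build than the counts. Log2 CPM for scores and similarity used a prior count of 2.

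Level order between genes used an exact two-sided paired permutation test over 6 livers. For Cpeb3 against Cpeb1 its p was used only in the adjustment. Named genes were the 4 members, Ing5, members of each list at an unadjusted p under 0.05 or the 2 most abundant, the 3 most similar genes by r, and neighbours of the members; Stat3, Trp53, Tent2, Parn, Pan2, Eif4e, Eif4enif1, Ddx6, Pum2, Aurka, Cdk1, Cry1, Lsm14b, Il1r1 and the cell type markers named singly were added after their values were seen, and some genes the rule names are not reported here. Herpud1 was likewise added after its values were seen. The members and lists were chosen with earlier results of these data known. Alternatives were DESeq2 1.42.0 (test and size factors), limma 3.58.1 voom, other filters and library sizes, no robust estimation, a replicate block, a threshold of 0.1, each library left out and other lengths; the longest-transcript length was added after the data were seen. The steps were tested on simulated data.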

Additional observations from a re-analysis of the deposited data

How the results depend on the processing

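The log2 fold changes of the 4 Cpeb genes moved by less than the spread within genotypes under each of 14 alternatives; Cpeb1 was -0.79 to -0.78 under the 8 that kept all libraries and -0.88 to -0.66 with 1 left out. The count of genes called was 1 with no low-count filter, 10 with DESeq2 and 0 to 17 with a library left out, against 0. The median of the polyadenylation list, -0.0071, was -0.0069 to 0.012 with a library left out. With 5 livers the paired permutation test allows no p below 0.0625, so neither order that passed could do so again; the log2 differences were 1.34 to 1.38 for Cpeb4 over Cpeb2 and 1.39 to 1.48 for Cpeb2 over Cpeb3. Cpeb3 over Cpeb1, a description that includes the Het values with which Cpeb1 was chosen, was 0.31 and with the coding length 0.78. Of the 12 most similar genes, 0 were again among the 3 nearest after genotype means were subtracted and 1 by Spearman's rho, where many genes tie. The labels' replicate numbers are shared by both genotypes, but deviations of same-numbered livers correlated at -0.025, -0.078 and 0.22, so they were not taken as pairs; the replicate block gave 0 called genes and -0.79 for Cpeb1. Depth limits Cpeb1 most, at 80 to 169 counts per library.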
